A study of Mus musculus with 20 samples.

Results

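Transcripts of 10 integrin chains carried by T cells (Itgb1, Itga4, Itgb7, Itgae, Itga6, Itgb4, Itgal, Itgb2, Itgav and Itgb8) were followed across sorted CD4 T cells of mouse lymph nodes and Peyer's patches. They were found as the probes whose deposited gene name is one of these 10 symbols, which gave 16 of the 39429 probes of the array. All 16 were measured well enough in some group to be tested, among 22264 tested probes. A gene with several probes is described by its leading probe, the one with the highest mean level over all arrays.

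The study asked how follicular helper T cells (TFH, which help B cells in germinal centres), follicular regulatory T cells (TFR, their Foxp3-expressing counterpart) and their precursors differ between immunised peripheral lymph nodes (pLN) and Peyer's patches (PP, the lymphoid follicles of the small intestine). All mice were of the strain B6.Cg-Foxp3<tm1Mal>, in which an EGFP reporter marks Foxp3+ cells, and each sample was pooled from several mice of both sexes aged 8 to 14 weeks. The mice were given keyhole limpet haemocyanin with alum under the skin per the methods, while the labels name an immunisation for the pLN groups alone. The pLN groups were sorted on day 12 (d12, 2 arrays per group) or day 25 (d25, 1 array per group) as naive T cells (GFP- PD1lo GL7-), TFH cells (GFP- PD1hi GL7+), Treg cells (GFP+ PD1lo GL7-) and TFR cells (GFP+ PD1hi, GL7+ or GL7-). The PP groups, with 2 arrays each, were TFH cells with the GL7 epitope, TFH cells without it, Treg cells and TFR cells, sorted by the same gates. Per the methods, every gate was also set on living CD4+ cells that lacked the B cell marker B220. Each of the 12 groups is thus a sort gate of pooled animals, with 2 arrays at most in a group. The 2 arrays of a pLN d12 or PP group also differed in slide and in RNA input (50 ng in replicate 1, 40 ng in replicate 2). The p-values thus measure a spread between arrays that mixes pool, slide and input.

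Integrins are pairs of an alpha and a beta chain that span the membrane, bind ligands on other cells or in the matrix, and switch between low and high affinity when talin and kindlin bind the beta tail. In T cells, αLβ2 (LFA-1) binds ICAMs, α4β1 (VLA-4) binds VCAM-1, α4β7 binds the gut addressin MAdCAM-1, αEβ7 (CD103) binds E-cadherin, α6β1 and α6β4 bind laminins, and αvβ8 releases active TGF-beta from its latent complex. A chain reaches the surface only with its partner, so that the level of a transcript is not the level of a pair at the surface.

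The arrays were of 1 colour, and values are normalised intensities with a floor of 20. An array detected 43.0% to 58.0% of its probes and saturated none. Local background had a median of 24 to 78, and of 268 on the second TFR array of pLN d12. The 4 CD4 T cell markers on the array were detected on all 20 arrays. Each slide held the 4 groups of 1 tissue and day: slides 1 and 2 the pLN d12 replicates, slide 3 pLN d25, and slides 4 and 5 the PP replicates. Slide 4 stood apart by other cells' markers: the summed level of 13 B cell genes was 24381 to 170839 there, against 6617 to 15050 on slide 5 and 4549 to 22668 in pLN. For 7 epithelial genes the sums were 3207 to 8085 on slide 4, 829 to 2370 on slide 5 and 417 to 2364 in pLN. PP values of member probes that changed their call without slide 4 are given with and without it. Differences within pLN stay as they are without slide 4, but the spread, estimated over all groups together, changes. This ended the pLN d12 calls of both Itgb1 probes between Treg and naive T cells. It also ended those of the leading Itgb1 probe between TFR and Treg cells and of Itgb7 between TFR and TFH cells. Other genes of integrin function, named at the end, were not examined without slide 4.

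**Figure D1:**
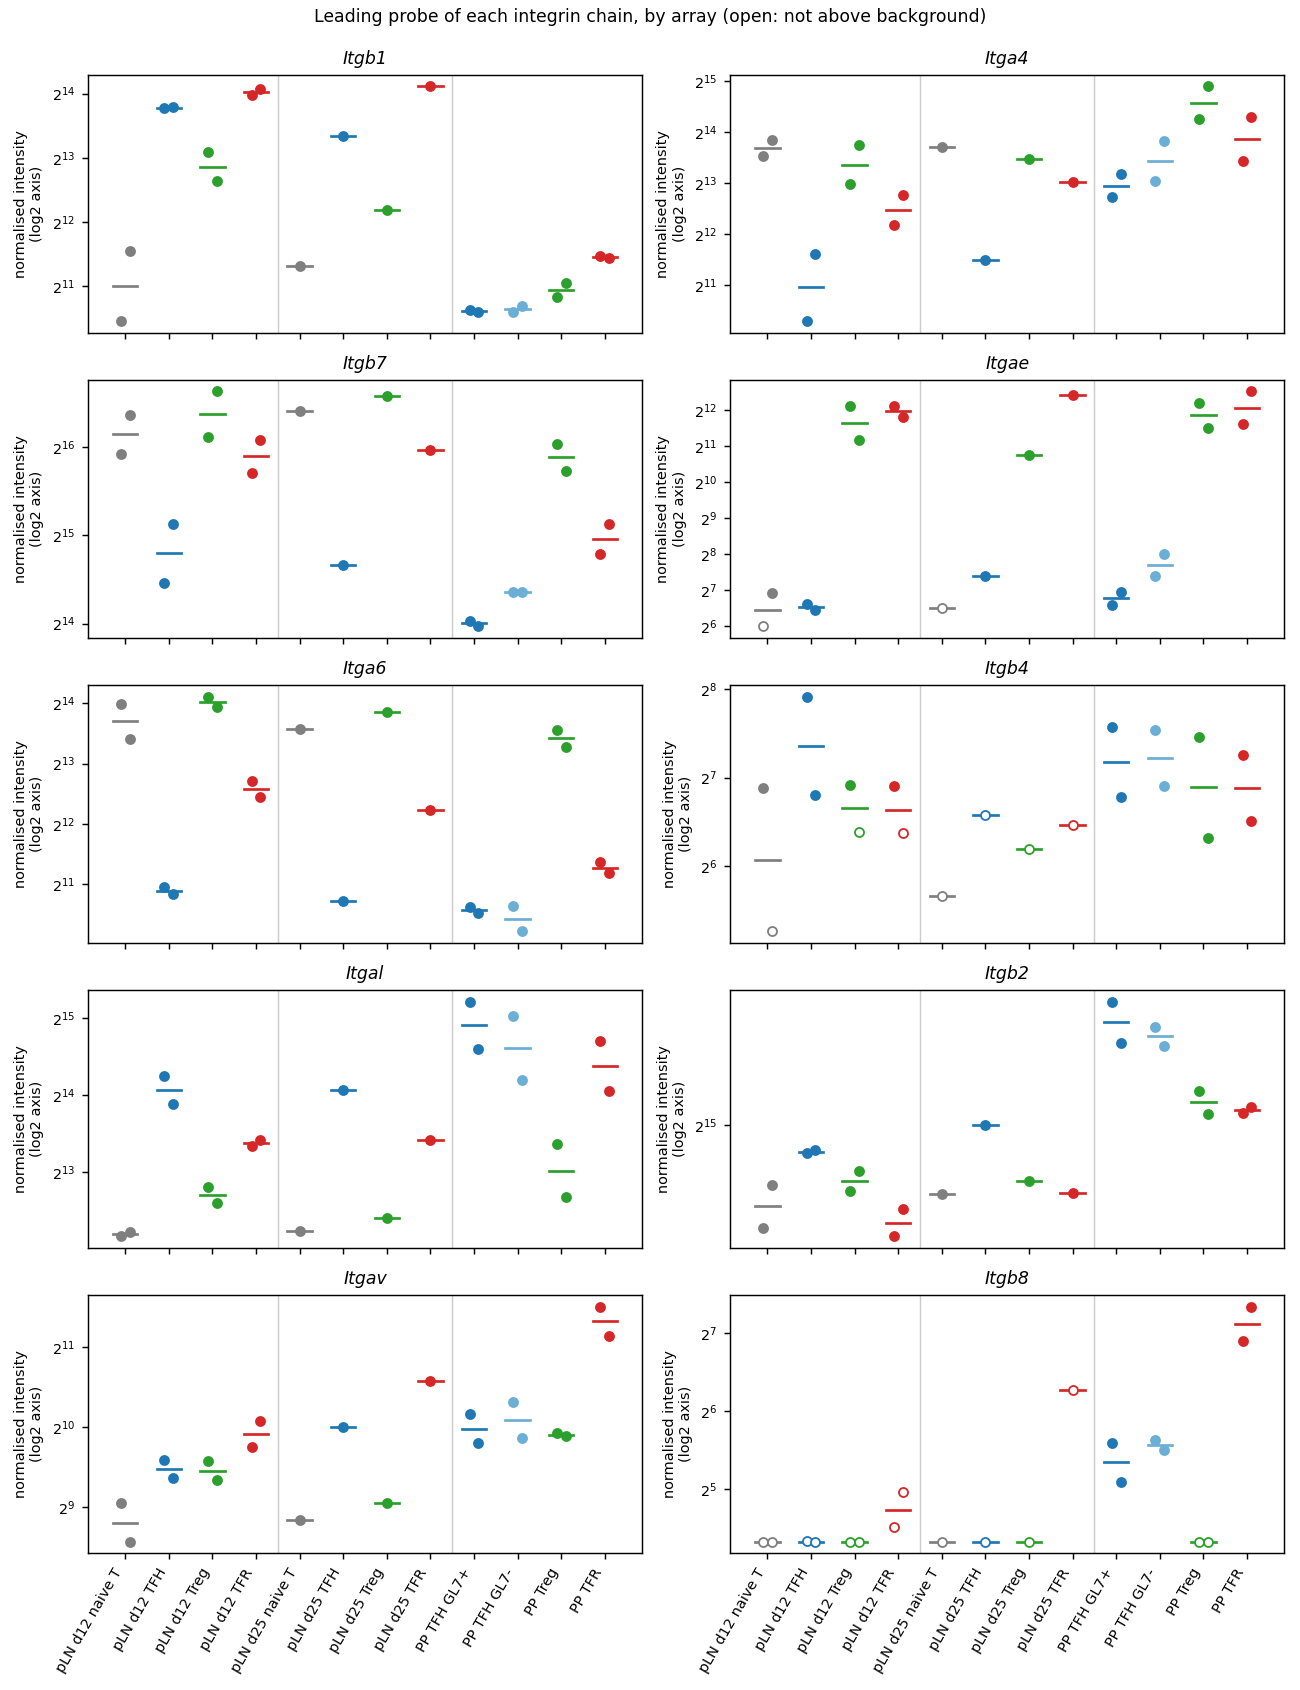
Normalised intensity of the leading probe of each of the 10 chains on each array (log2 axis), by group along the horizontal axis, with pLN d12, pLN d25 and PP separated by grey lines. Open points were not above background; a group of pLN d12 or PP has 2 points and a group of pLN d25 has 1. Itgb1 stands lower in every PP group than in every pLN follicular group, Itgae splits the Foxp3+ gates from the others, and Itgb8 leaves the floor of 20 in few groups.

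Of the 16 probes, 11 (8 genes) were called by limma's F test as different among the 12 groups, where 17.3% of all tested probes were called. A call here took a p under 0.001 and an adjusted p under 0.005. The leading probes of Itga4 (adjusted p 0.00975) and Itgb4 (adjusted p 0.689) were not called. In pairwise comparisons a probe was called at a Benjamini-Hochberg adjusted p under 0.05 and a log2 difference of at least 1 either way. TFH set against naive T cells (pLN d12) gave 9 of 16 called, beside 14.7% of all tested probes. Of these, 5 were higher (9.27% of all tested probes) and 4 lower (5.48%) in TFH cells. The median log2 difference of the members was 0.24, against -0.09 over all tested probes. Other steps moved fewer members. Between Treg and naive T cells 3 were called, all higher in Treg cells (3.76% of all tested probes were called, 2.86% higher), with medians of 0.41 for the members and -0.03 overall. TFR against Treg cells gave 2 in pLN, 1 higher and 1 lower (8.35% of all probes called, 5.79% higher and 2.56% lower). In PP it gave 5, 4 higher and 1 lower (9.25% of all, 6.23% higher and 3.02% lower). TFR against TFH cells gave 3 in pLN (5.01% of all, 2.81% higher) and 3 in PP (3.44% of all, 2.34% higher), each of them higher in TFR cells. GL7+ TFH against Treg cells of PP gave 6, 3 higher and 3 lower (9.87% of all, 5.26% higher and 4.62% lower). The share of members called was above the share of all tested probes in each of these comparisons. No test was made of that difference. For TFR against Treg cells of pLN it was near that share, with 2 of 16 against 8.35%, and no excess is read there. The counts are of probes: the 9 called between TFH and naive T cells are of 6 genes. They include a dim Itga4 probe that was below background in both groups. Itgb8, which entered the tests through PP groups, is among the called in each comparison within PP that is given in this paragraph. These comparisons share arrays: the TFR arrays enter both of their comparisons, as do the naive T arrays.

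**Figure D2:**
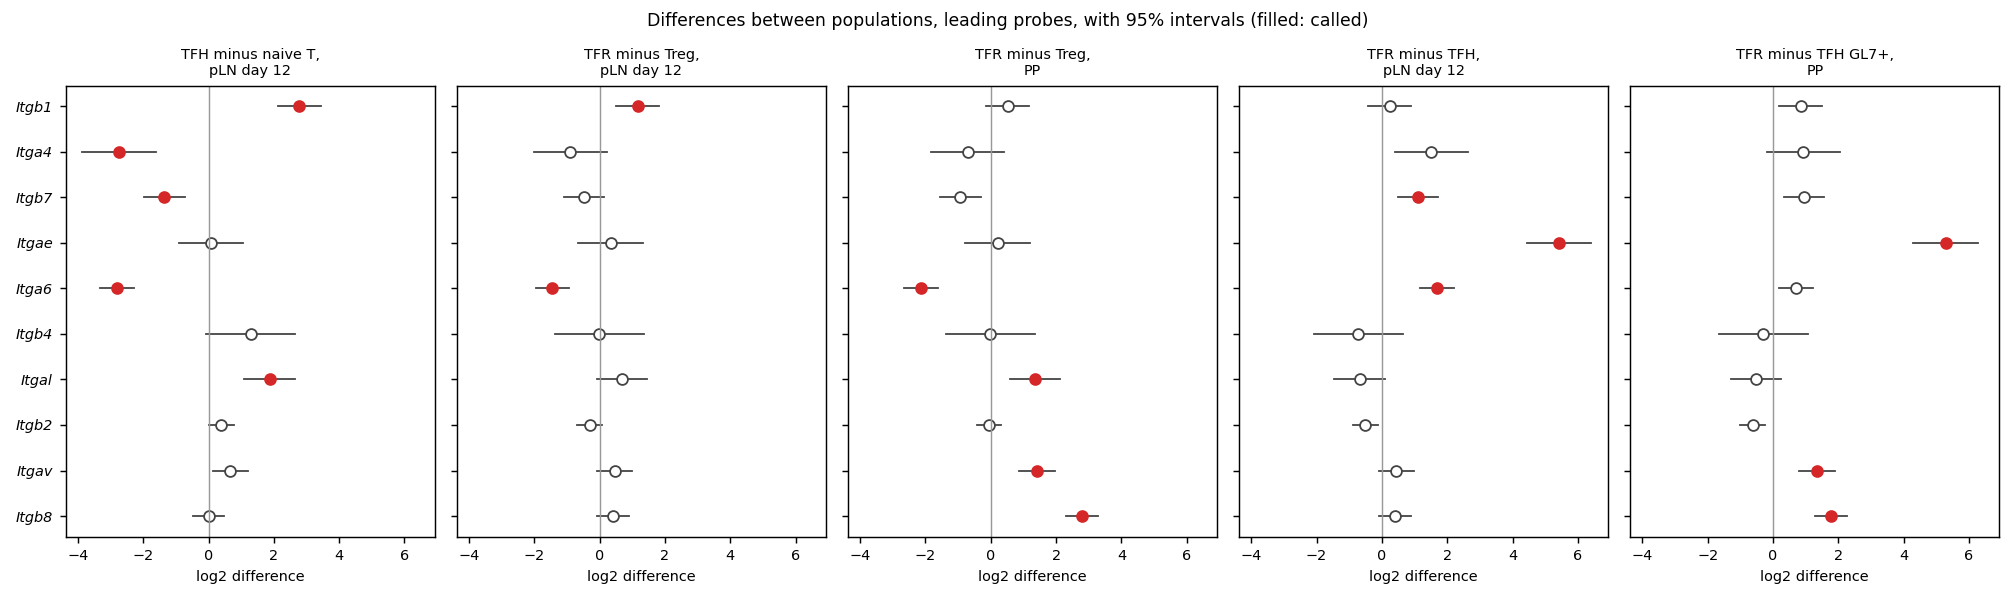
Log2 difference of each leading probe with its 95% interval in 5 comparisons between populations, filled where called. Itgae is the farthest point in both comparisons of TFR with TFH cells (5.43 in pLN and 5.28 in PP), Itga6 lies to the left in both comparisons of TFR with Treg cells (-1.45 and -2.14), and Itgav and Itgb8 are filled only in the PP panels.

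Itgb1 encodes the β1 chain (CD29), the common partner of many alpha chains. Both its probes lie on chromosome 8, and the leading probe joins exons that code for the cytoplasmic tail, with the 2 NPxY stretches by which β tails bind talin and kindlin shown in capitals. Positions are on mm9, plus strand.
Itgb1 leading probe, chr8:131250081-131255976: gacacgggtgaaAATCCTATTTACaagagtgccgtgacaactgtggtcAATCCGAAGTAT
Itgb1 other probe, chr8:131246349-131246408: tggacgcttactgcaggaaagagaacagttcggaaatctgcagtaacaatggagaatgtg
The first spans 5896 bases of genome for its 60 bases, so that it crosses an intron, while the second lies within a single exon upstream. Codon stretches for NPxY, searched on the sense strand in any frame, were found at least once in 88 of 39429 probes (0.223%) and 2 times in 1 probe, the one shown.

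In pLN d12 the leading Itgb1 probe read 1406 and 2979 in naive T cells, 8692 and 6383 in Treg cells, 13998 and 14185 in TFH cells, and 16111 and 17175 in TFR cells. These 4 groups did not overlap, and the order from naive T to TFR cells was the same on both slides. On d25 the same order held, with 2532, 4648, 10361 and 17745. TFH cells exceeded naive T cells 6.89-fold, a log2 difference of 2.78 (SE 0.29, adjusted p 9.76e-05), with 3.32 within slide 1 and 2.25 within slide 2. Treg cells exceeded naive T cells 3.64-fold (log2 1.86, SE 0.29, adjusted p 0.00471). Without pLN d12 Treg replicate 1 that was 1.64 with an adjusted p of 0.062 and no call. TFR exceeded Treg cells 2.23-fold (1.16, SE 0.29, adjusted p 0.0298), a call lost when any of the 4 arrays was left out (0.94 to 1.38, adjusted p 0.053 to 0.205). Between TFR and TFH cells of pLN the difference was 0.24 (95% interval -0.41 to 0.89, adjusted p 0.891).

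The same transcript was low and nearly level in PP: 1577 and 1542 in GL7+ TFH, 1542 and 1645 in GL7- TFH, 1811 and 2110.2 in Treg, and 2838 and 2775 in TFR cells. Every PP array thus lay below every Treg, TFH and TFR array of pLN, and within the range of the naive T cells of pLN. PP TFR cells read above the other PP groups on both slides, by 0.85 over TFH GL7+ (adjusted p 0.214) and 0.52 over Treg cells (adjusted p 0.352), which did not pass the test. From pLN d12 to PP, Itgb1 fell by 3.18 in TFH (SE 0.29, adjusted p 0.000637, 9.04-fold), by 2.57 in TFR (SE 0.29, adjusted p 0.000611, 5.93-fold) and by 1.93 in Treg cells (SE 0.29, adjusted p 0.00786, 3.81-fold). Without slide 4 the values were -3.19 in TFH (adjusted p 0.052), -2.58 in TFR (adjusted p 0.029) and -1.82 in Treg cells (adjusted p 0.133), so that the size stayed and the call was kept in TFR cells only. The Treg call was also lost without pLN d12 Treg replicate 1 (-1.71, adjusted p 0.083) without PP Treg replicate 1 (-1.82, adjusted p 0.063), and with slide as a random block (-1.93, adjusted p 0.123). The second probe gave -3.31 in TFH (adjusted p 0.00529) and -2.89 in TFR cells (adjusted p 0.00377). In Treg cells it was not called in the main fit, with -2.12 to -1.69 over the alternative settings. Without slide 4 it lost both calls (-3.29, adjusted p 0.121, and -2.85, adjusted p 0.080), and a random block for slide ended the one in TFH cells (adjusted p 0.059). It correlated with the leading probe at r = 0.991 over the 12 group means. Whether the drop was unequal between populations was tested as well: for TFR minus Treg cells the tissue difference was -0.64 (adjusted p 0.897) and for TFR minus TFH cells 0.61 (adjusted p 1), neither called. In bulk samples, fewer cells that carry a transcript and less of it per cell cannot be told apart. Tissue and slide also cannot be told apart here, since each tissue lay on its own slides.

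Counted over the members, PP against pLN d12 gave 1 called probe in Treg cells, lower in PP (2.24% of all tested probes were called, 0.422% lower). In TFH cells it gave 4, 2 higher and 2 lower (4.54% of all, 2.36% higher and 2.18% lower), and in TFR cells 6, 3 higher and 3 lower (11.1% of all, 5.74% higher and 5.39% lower). For the mean of the 3 populations it was 5, 3 higher and 2 lower (9.34% of all, 5.26% higher and 4.08% lower). Of the 3 higher ones, Itgb8 and the dimmer Itga4 probe were below background in every pLN group and passed the filter through PP. With a filter on mean intensity the count was 3. Itgb8 is also among the higher ones in TFH cells and in TFR cells, so those counts are tied to the filter as well. The populations of a tissue share slides, and with slide as a random block the count for the mean of the 3 populations was 1. In that mean the median was 0.23 over the members and 0.00 over all tested probes. Median log2 differences of the members were 0.22 in Treg, 0.35 in TFH and 0.33 in TFR cells.

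**Figure D3:**
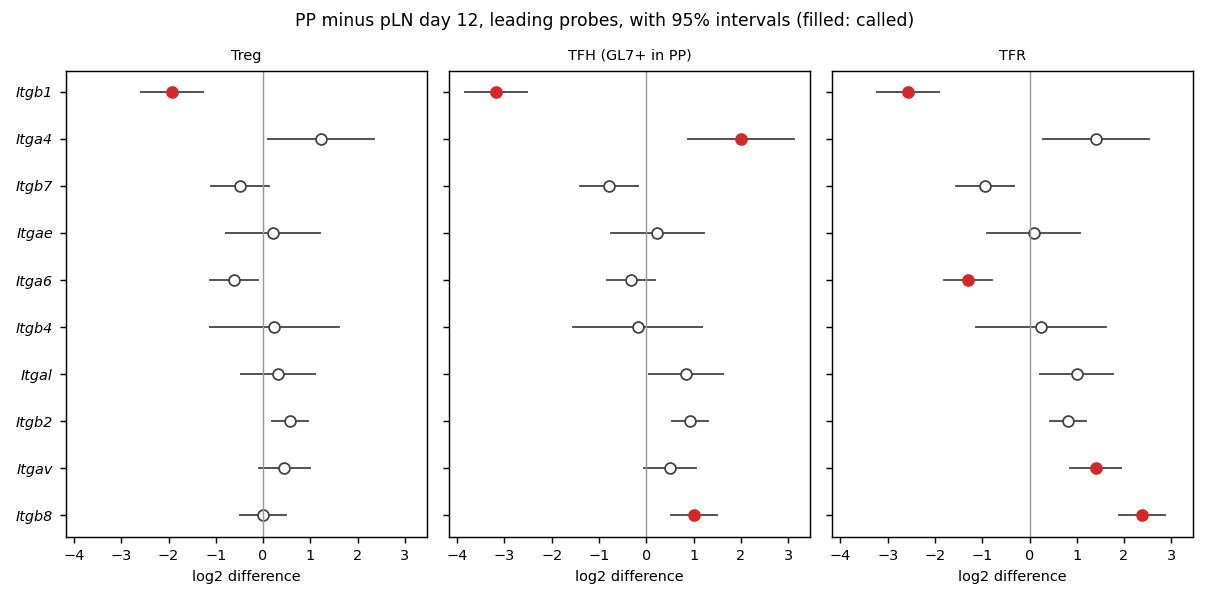
Log2 difference from pLN d12 to PP of each leading probe with its 95% interval, in Treg, TFH GL7+ and TFR cells, filled where called. Itgb1 lies to the left in all 3 populations (-1.93, -3.18 and -2.57), Itga4 to the right, and Itgb8 from 0.00 in Treg to 2.38 in TFR cells.

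The chains that make α4β1, α4β7 and αEβ7 had unlike courses. Itga4 encodes the α4 chain. Its leading probe (chr2:79173193-79173252, plus strand) read 11901 and 14737 in naive T, 8043 and 13782 in Treg, 4602 and 6932 in TFR, and 1252 and 3130.2 in TFH cells of pLN d12. TFH cells were lowest on both slides, and slide 2 read higher than slide 1 in every group. Itga4 fell from naive T to TFH cells by 2.74 (SE 0.50, adjusted p 0.00318, 6.69-fold), with -3.25 and -2.24 within the slides. On d25 the values were 13389 in naive T, 11445 in Treg, 8284 in TFR and 2887 in TFH cells, in the same order. TFR cells lay 1.51 above TFH cells, which was not called (SE 0.50, adjusted p 0.135) unless slide was a term of the fit (adjusted p 0.00175).

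In PP, Itga4 read 6739 and 9294 in GL7+ TFH, 8383 and 14522 in GL7- TFH, 11091 and 20301 in TFR, and 19672 and 30660.0 in Treg cells. Here too slide 5 read above slide 4 in every group, and Treg cells were highest and GL7+ TFH cells lowest on both slides. GL7+ TFH differed from Treg cells by -1.63, which was not called (adjusted p 0.0616) but was with slide in the fit (adjusted p 0.000556). Levels in PP were above those of pLN for each population. In TFH cells Itga4 rose by 2.0 (SE 0.50, adjusted p 0.046), and the mean over the 3 populations rose by 1.54 (SE 0.29, adjusted p 0.00331), while Treg (1.22, adjusted p 0.291) and TFR cells (1.41, adjusted p 0.0862) did not pass alone. With slide as a random block the mean lost its call (1.54, adjusted p 0.071). The TFH call was lost without pLN d12 TFH replicate 1 (1.34, adjusted p 0.231), PP GL7+ TFH replicate 1 (2.23, adjusted p 0.152) or PP GL7+ TFH replicate 2 (1.77, adjusted p 0.210), and without slide 4 (2.23, adjusted p 0.162). A second probe within the coding region of the transcript, across an intron, was near the limit of detection:
Itga4 other probe, chr2:79153985-79155115, plus strand, mm9: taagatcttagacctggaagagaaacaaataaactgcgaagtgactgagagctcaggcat
It was below background on all 12 pLN arrays and read 119 and 177 in PP Treg cells, its highest group. Its difference between TFH and naive T cells (-2.01, adjusted p 0.0159) is among the 9 called, but compares readings below background and was lost when any of the 4 arrays was left out (adjusted p 0.052 to 0.087) and with normexp background correction (-0.80). Over the 12 group means the 2 probes correlated at r = 0.978.

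Itgb7, the β7 chain, is the partner that α4 and αE share (probe at chr15:102046450-102046509, minus strand). In pLN d12 it read 62176 and 84396 in naive T, 70969 and 101354 in Treg, 53501 and 69169 in TFR, and 22566 and 35813 in TFH cells. The first 3 groups overlapped, and both TFH arrays lay below all of their arrays. From naive T to TFH cells it fell by 1.35 on the log2 scale (SE 0.28, adjusted p 0.00607, 2.55-fold). Without pLN d12 TFH replicate 1 this was -1.02 (adjusted p 0.057), and without naive T replicate 2 it was -1.13 (adjusted p 0.0501), neither of them called. TFR exceeded TFH cells by 1.10 (SE 0.28, adjusted p 0.0457, 2.14-fold). That call was lost without TFH replicate 1 (0.76, adjusted p 0.346), TFR replicate 1 (1.28, adjusted p 0.106) or TFR replicate 2 (0.91, adjusted p 0.273).

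PP kept the low Itgb7 of TFH cells, with 16778 and 16069.9 in GL7+ and 21077 and 20959 in GL7- cells, beside 28210.2 and 35675 in TFR and 67085 and 54495 in Treg cells. The 3 gates of PP did not overlap, with TFR cells between the others on both slides. The difference of GL7+ TFH from Treg cells was -1.88 (SE 0.28, adjusted p 0.0013, 3.68-fold), which was -1.76 with an adjusted p of 0.103 without slide 4. The difference of TFR cells from Treg cells was -0.93 (adjusted p 0.0562) and from GL7+ TFH cells 0.95 (adjusted p 0.115), neither called. Between tissues the changes were -0.49 in Treg, -0.79 in TFH and -0.94 in TFR cells, none of them reaching a log2 difference of 1. Without quantile normalisation the TFR value was -1.28 (adjusted p 0.0105) and called.

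Itgae encodes αE (CD103), a marker of many Treg cells and of T cells that lodge in epithelia. The probe crosses an intron on chromosome 11 and is printed because it gave the members' most uneven levels.
Itgae probe, chr11:72945236-72946221, plus strand, mm9: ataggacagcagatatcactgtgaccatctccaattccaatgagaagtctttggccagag
In pLN d12 it read 4444 and 2278 in Treg and 4444 and 3610.3 in TFR cells, against 98.9 and 87.7 in TFH and 64.1 (below background) and 121 in naive T cells. PP gave 4660.4 and 2911 in Treg and 3107 and 5848 in TFR cells, against 96.7 and 124 in GL7+ and 167 and 255 in GL7- TFH cells. No array of a GFP+ gate read below 1715 and no array of a GFP- gate above 255, at either time and in both tissues. On d25, TFR cells read 5417 and Treg cells 1715, beside 168 in TFH and 90.4 (below background) in naive T cells.

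Treg cells exceeded naive T cells 36.1-fold for Itgae (log2 5.18, SE 0.44, adjusted p 0.000118), with 1 of 2 naive T arrays above background. TFR exceeded TFH cells 43.0-fold in pLN (5.43, adjusted p 9.18e-05) and 38.9-fold in PP (5.28, adjusted p 0.000121), and the tissue difference between these steps was -0.14 (SE 0.63, adjusted p 1). Within the Foxp3+ gates, TFR and Treg cells differed by 0.33 in pLN and 0.21 in PP, with 95% intervals of -0.66 to 1.32 and -0.78 to 1.20. GL7- TFH cells read above GL7+ TFH cells on both slides of PP. The difference of GL7+ from GL7- was -0.92 (95% interval -1.91 to 0.07, adjusted p 1). No tissue difference of Itgae was called in any population (0.09 to 0.23 on the log2 scale, SE 0.44).

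Itga6 and Itgb4 code for the laminin receptor chains α6 (CD49f) and β4. Itga6 (leading probe at chr2:71694756-71694815, plus strand) read 16297 and 10864 in naive T, 17665 and 15766 in Treg, 6697 and 5610.3 in TFR, and 1995 and 1827 in TFH cells (pLN d12). TFR cells thus lay between TFH cells and the PD1lo gates, with no overlap. On d25 the values were 12164, 14755, 4804 and 1699.6 in the same order of groups. From naive T to TFH cells it fell by 2.80 (SE 0.23, adjusted p 2.19e-05, 6.97-fold). From Treg to TFR cells Itga6 fell by 1.45 (SE 0.23, adjusted p 0.00291, 2.72-fold), and TFR cells kept 3.21-fold more than TFH cells (1.68, SE 0.23, adjusted p 0.00169).

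PP Treg cells read 12076 and 9942 for Itga6, below each of the pLN Treg arrays. PP TFR cells read 2662 and 2323, GL7+ TFH cells 1580.3 and 1478, and GL7- TFH cells 1601 and 1197. Between Treg and TFR cells the difference was -2.14 (SE 0.23, adjusted p 0.000248, 4.41-fold) and between Treg and GL7+ TFH cells -2.84 (SE 0.23, adjusted p 2.98e-05, 7.17-fold). TFR cells lay 0.70 above GL7+ TFH cells, which was not called (adjusted p 0.175). Between the tissues, Itga6 of TFR cells fell by 1.30 (SE 0.23, adjusted p 0.00468, 2.46-fold), while Treg cells changed by -0.61 (adjusted p 0.24) and TFH cells by -0.32 (adjusted p 0.515). A test of the differences between populations called none of them: the tissue difference was -0.69 for the step from Treg to TFR (adjusted p 0.636) and -0.98 for the step from TFH to TFR cells (adjusted p 0.406). No left-out array ended a call of this probe. A second probe, which the array design assigns to an Ensembl transcript, read 419 to 1605 over all arrays and correlated with the first at r = 0.817. It was not called in any comparison, but its difference of -1.21 between TFH and naive T cells was called with slide in the fit (adjusted p 0.00385).

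Itgb4 was at the edge of detection throughout, from 38.4 in naive T replicate 2 (below background) to 241 in TFH replicate 1 of pLN d12. Replicate 1 read above replicate 2 in every group of 2, and all 4 arrays of d25 were below background. No comparison called it, and the F test over groups gave an adjusted p of 0.689. TFH cells read above naive T cells on both slides (241 against 118, and 112 against 38.4), a difference of 1.29 that passed with slide in the fit (adjusted p 0.00322) and not without (adjusted p 0.194).

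Itgal (αL, CD11a) and Itgb2 (β2, CD18) make LFA-1. Itgal was higher in TFH than naive T cells of pLN, where Itga6 and Itgb7 were lower. Its leading probe (chr7:134477160-134477219, plus strand) read 4611 and 4799 in naive T, 7203 and 6221 in Treg, 10426 and 10987 in TFR, and 19417 and 15177 in TFH cells of pLN d12. The groups did not overlap, and TFR cells again lay between Treg and TFH cells. On d25 it read 4864, 5432, 10945 and 17207. TFH cells exceeded naive T cells 3.65-fold (1.87, SE 0.35, adjusted p 0.00345), and a second probe just upstream (chr7:134477064-134477123) gave 1.89 (SE 0.18, adjusted p 4.76e-05). TFR lay 0.68 above Treg cells in pLN (adjusted p 0.292).

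In PP, Itgal read 37958 and 24849.7 in GL7+ TFH, 33543 and 18843 in GL7- TFH, and 26752 and 17095 in TFR cells, beside 10568 and 6562 in Treg cells. Slide 4 read above slide 5 in all 4 groups, and Treg cells were lowest on each slide. GL7+ TFH cells exceeded Treg cells 3.69-fold (1.88, SE 0.35, adjusted p 0.00504), or 1.79 by the second probe (adjusted p 0.000102). The leading probe lost this call without PP GL7+ TFH replicate 1 (1.58, adjusted p 0.053) or PP Treg replicate 2 (1.54, adjusted p 0.051). TFR exceeded Treg cells 2.57-fold (1.36, SE 0.35, adjusted p 0.0292), or 1.35 by the second probe (SE 0.18, adjusted p 0.000798). Here the leading probe lost its call without PP TFR replicate 1 (1.04, adjusted p 0.197) or PP Treg replicate 2 (1.02, adjusted p 0.217). From pLN to PP, TFR cells gained 1.22 by the second probe (SE 0.18, adjusted p 0.00188, 2.33-fold) and 1.00 by the leading one (adjusted p 0.0792, not called). The remaining Itgal probe, at chr7:134474711-134474767, read 45.6 to 118 and was detected on 12 of 20 arrays. It correlated with the leading probe at r = 0.0992, whereas the second did at 0.995.

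Itgb2 was steadier than its partner (probe at chr10:77027978-77028037, plus strand). In pLN d12 it read 19655 and 24399 in naive T, 23596 and 26103 in Treg, 18843 and 21557 in TFR, and 28503 and 28946 in TFH cells. TFH cells were highest without overlap, yet by 0.39 over naive T cells (adjusted p 0.156). On d25 the range was 23246 in naive T to 32766 in TFH cells. PP read 60576 and 49323 in GL7+ TFH, 53501 and 48611 in GL7- TFH, 38859.9 and 34702 in Treg, and 34813 and 35931 in TFR cells. Every PP array lay above every pLN array. The tissue difference was 0.93 in TFH (adjusted p 0.0138), 0.81 in TFR (adjusted p 0.0107) and 0.57 in Treg cells (adjusted p 0.139). For TFH and TFR cells the p passed while the size stayed under the fold threshold, so neither was called. Without PP GL7+ TFH replicate 2 the TFH value was 1.08 (adjusted p 0.039) and called. Slide 4, where the B cell markers were high, read above slide 5 in 3 of 4 groups. Without slide 4 the tissue differences were 0.78 in TFH (adjusted p 0.137), 0.83 in TFR (adjusted p 0.058) and 0.48 in Treg cells (adjusted p 0.276).

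Itgav (αv) and Itgb8 (β8) encode the receptor that activates latent TGF-beta. Itgav (leading probe at chr2:83646133-83646192, plus strand) read 528 and 379 in naive T, 761 and 646 in Treg, 772 and 658 in TFH, and 863 and 1082 in TFR cells of pLN d12, and 1528 in TFR cells of d25. TFR cells were highest at both times, but 0.46 above Treg cells on d12 was not called (adjusted p 0.307). In PP it read 2893 and 2254 in TFR cells, against 969 and 945 in Treg, 1144 and 889 in GL7+ TFH and 1266 and 934 in GL7- TFH cells. PP TFR cells stood above all other arrays of the data. They exceeded Treg cells 2.67-fold (adjusted p 0.00393) and GL7+ TFH cells 2.53-fold (1.34, SE 0.24, adjusted p 0.0119), and pLN TFR cells 2.64-fold (1.40, SE 0.24, adjusted p 0.00455). Without slide 4 these were 1.25 (adjusted p 0.108), 1.34 (adjusted p 0.174) and 1.22 (adjusted p 0.053), with no call. The comparison with GL7+ TFH cells was also lost without PP TFR replicate 1 (1.16, adjusted p 0.089) or GL7+ TFH replicate 2 (1.16, adjusted p 0.121).

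The second Itgav probe (chr2:83643905-83643964) was dimmer, with readings of 34.8 in naive T cells of d25 (below background) to 359 in PP TFR replicate 2. TFH cells exceeded naive T cells at least 1.72-fold by this probe (1.37, SE 0.33, adjusted p 0.0153), where both naive T arrays were below background. The leading probe gave 0.67 (adjusted p 0.086), and the call was lost without naive T replicate 1 or 2 or TFH replicate 2 (adjusted p 0.070, 0.069 and 0.085), and with normexp background correction (0.57, adjusted p 0.098). With slide in the fit the second probe also set TFR above Treg cells in pLN (1.12, adjusted p 0.00037) and in PP (1.14, adjusted p 0.00024).

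Itgb8 (probe at chr12:120401278-120401337, minus strand) was below background on both arrays of naive T, TFH and Treg cells of pLN d12, on their d25 arrays, and on both arrays of PP Treg cells. These arrays were at the floor of 20, but for a TFH array of pLN d12 at 20.0254. In TFR cells of pLN it read 22.8 and 31 on d12 and 76.7 on d25, all below background. It was detected in PP alone: 48.3 and 33.9 in GL7+ TFH, 49.5 and 45.2 in GL7- TFH, and 119 and 161 in TFR cells. As the probe passed the filter through these PP groups, its differences there come with the choice of the filter. PP TFR exceeded GL7+ TFH cells 3.43-fold (1.78, SE 0.22, adjusted p 0.0012), Treg cells at least 4.09-fold (2.79, SE 0.22, adjusted p 5.01e-05), and pLN TFR cells at least 2.53-fold (2.38, SE 0.22, adjusted p 0.000192). Without slide 4 these were 2.25 (adjusted p 0.021), 3.01 (adjusted p 0.007) and 2.60 (adjusted p 0.006), all still called. With normexp background correction they were smaller: 0.82 over GL7+ TFH cells (adjusted p 0.00904) and 0.97 over pLN TFR cells (adjusted p 0.00156), both under the fold threshold and so not called.

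Bounds with GL7+ TFH cells were weaker for Itgb8: at least 1.19-fold over PP Treg cells (1.02, SE 0.22, adjusted p 0.0116) and at least 1.10-fold over pLN TFH cells (1.02, SE 0.22, adjusted p 0.026). Of the alternatives, 8 of 15 ended the first of these calls and 10 of 14 the second. Both were under the fold threshold with the authors' values (0.84 each) and with scaling without quantile normalisation (0.97 each). The first lost its call without GL7+ TFH replicate 1 (0.76, adjusted p 0.109) or PP Treg replicate 1 (1.02, adjusted p 0.053) or 2 (1.02, adjusted p 0.064), without slide 4 (0.76, adjusted p 0.170) and with normexp background correction (0.49, adjusted p 0.0467). The second lost it without pLN d12 TFH replicate 1 (1.02, adjusted p 0.101) or 2 (1.01, adjusted p 0.114) or GL7+ TFH replicate 1 (0.76, adjusted p 0.202), without slide 4 (0.76, adjusted p 0.159), with normexp background correction (0.43, adjusted p 0.108) and with slide as a random block (1.02, adjusted p 0.179).

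Whether tissue changed the steps between populations was tested for all members. The tissue difference of the step from Treg to TFR cells called 1 of 16 probes (0.548% of all tested probes, 0.346% higher), Itgb8 at 2.38 (SE 0.31, adjusted p 0.00953). In 3 of the 4 groups of this test the probe was below background, and it had passed the filter through PP, so the direction comes with that choice. With normexp background correction the value was 0.91 (adjusted p 0.084). That of the step from TFH to TFR cells called 0 of 16 with limma (0.611% of all, 3 at an unadjusted p under 0.05), with Itgb8 at 1.37 (adjusted p 0.113, and 0.0424 with slide in the fit). For Itgav the 2 tissue differences were 0.95 (adjusted p 0.402) and 0.90 (adjusted p 0.572).

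GL7+ against GL7- TFH cells of PP called no member by limma (0 of 16, 0.00898% of all, 0 at an unadjusted p under 0.05). The 95% intervals of the difference, GL7+ minus GL7-, were -0.68 to 0.62 for Itgb1, -0.37 to 0.65 for Itga6, -0.28 to 0.48 for Itgb2 and -0.48 to 1.06 for Itgal. For Itga4 and Itgb7 they were -1.60 to 0.64 and -0.97 to 0.26. A log2 difference of 1 thus lay outside the interval for Itgb1, Itga6, Itgb2 and Itgb7, and within it for Itgal and Itga4. The step from d12 to d25 in pLN, averaged over 4 populations, called 0 of 16 members (0.0404% of all, 1 at an unadjusted p under 0.05), with leading probes between -0.46 (Itgb4) and 0.38 (Itgb8). Day and slide cannot be told apart in this step.

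Partner chains were set side by side over the 12 group means, as a description in which groups share slides and the mean of a d25 group is 1 array. Itga4 and Itgb7 correlated at r = 0.413 and Itga4 and Itgb1 at -0.675, so that α4 ran with neither of its partners closely. PP Treg cells had the highest Itga4 and pLN d25 Treg cells the highest Itgb7. Itgal and Itgb2 correlated at 0.777 and Itgav and Itgb8 at 0.860. Other partner chains ran less closely or against each other: Itgae and Itgb7 at 0.407, Itga6 and Itgb1 at -0.015, and Itga6 and Itgb4 at -0.710. Itga6 and Itgb7, which do not pair, correlated at 0.956, and Itgal ran against both (-0.951 with Itga6 and -0.950 with Itgb7).

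**Figure D4:**
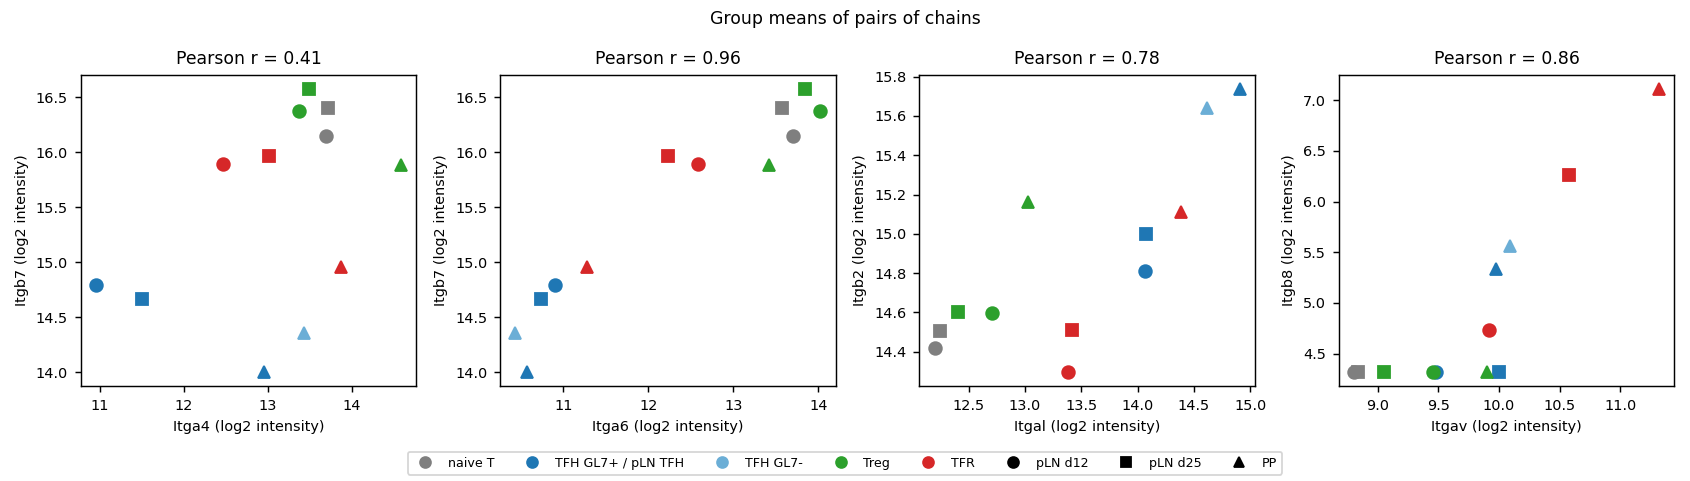
Mean log2 normalised intensity of 4 pairs of chains, 1 point per group (12 groups), coloured by population and shaped by tissue and day. Itga6 and Itgb7 lie along a line (r = 0.956), Itga4 and Itgb7 scatter (r = 0.413) with PP Treg cells farthest to the right, and Itgb8 is at its floor of 20 in 6 of the 12 groups and at 20.0127 in another.

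Other probes of the array followed some chains closely over the 12 group means. The nearest to Itgb1 were Zbtb32 (r = 0.974), Fut7 (0.973) and Gcnt1 (0.961), of which the last 2 encode enzymes that build selectin ligands. For Itga6 they were Oat (0.992), Il4ra (0.991) and Slc17a9 (0.991), and for Itgal Sh2b1 (0.991), Pla2g6 (0.988) and Armcx6 (0.985). Itgae was nearest to Klrg1 (0.986), a receptor of differentiated T cells and Treg cells, then to Gm12693 (0.974) and Tnfrsf18 (0.973), which encodes the Treg surface protein GITR. Trim2 was nearest to Itgb8 (0.961) and Col16a1 to Itgav (0.969). These values are given without a test, over 12 points that share slides.

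The other genes of integrin function were read from 3 lists. Of 16 further integrin chains, 8 were tested. Itgb3, the β3 chain, fell by 4.62 from naive T to TFH cells (SE 0.33, adjusted p 9.81e-06), and Itgb5, the β5 chain, was higher at least 6.39-fold (4.30, SE 0.50, adjusted p 0.000179), with naive T cells below background. These were the 2 chains called of 8 in that comparison (9.27% of all tested probes were higher and 5.48% lower), with a median of -0.05 over the 8 and -0.09 over all probes. Between TFR and Treg cells 3 chains were higher and 1 lower in pLN (5.79% and 2.56% of all tested probes), and 2 higher and 1 lower in PP (6.23% and 3.02% of all). In both tissues Itgb5 was higher (3.32 and 2.69) and Itgb3 lower (-2.08 and -1.50) in TFR cells. For Itgb5, 1 of 2 pLN Treg arrays was above background. From pLN to PP the α5 chain Itga5, a fibronectin receptor with β1, rose by 2.02 in TFR (at least 1.65-fold) and 1.94 in Treg cells (at least 2.27-fold), with pLN below background. This probe passed the filter through PP, where GL7+ TFH cells were below background too.

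Among 34 genes that switch integrins on or link them to the cytoskeleton, 31 were tested, of which 2 were higher and 5 lower in TFH than naive T cells, where 9.27% of all tested probes were higher and 5.48% lower. The median over the 31 was 0.01, against -0.09 over all probes. Rasgrp2 encodes CalDAG-GEFI, which loads Rap1 to activate integrins. Its difference was -3.31 between TFH and naive T cells (SE 0.49, adjusted p 0.000845), -2.76 between TFR and Treg cells of PP (adjusted p 0.00469), and -2.08 between PP and pLN TFR cells (adjusted p 0.0174). Plxnd1, a semaphorin receptor, was higher in TFH cells by 2.98 (SE 0.41, adjusted p 0.000549), and fell by 3.11 from pLN to PP TFH cells (adjusted p 0.00321). Asb2, part of a ubiquitin ligase that targets filamins, differed between its probes: the leading probe put TFH cells at least 124-fold above naive T cells (7.48, SE 0.56, adjusted p 1.4e-05) and PP above pLN TFR cells by 4.72 (adjusted p 0.000762), while another gave 0.29 and -0.08. Cytip, which binds cytohesin-1 and loosens LFA-1 adhesion, was lower in TFR than Treg cells of both tissues (-1.41 and -1.77). Vcl, which encodes vinculin, was higher in TFR than TFH cells of both tissues (1.26 and 1.74), with 1 of 2 TFH arrays above background in each. In PP against pLN, 2 of 31 were higher and 3 lower in TFR cells (5.74% and 5.39% of all tested probes). In TFH cells 1 was higher and 1 lower (2.36% and 2.18% of all), and in Treg cells 1 was higher and 0 lower (2.24% of all called), so that the counts lay near the shares of all probes.

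Of 16 ligands and partners of latent TGF-beta, 12 were tested, and 2 were higher and none lower in TFH than naive T cells (9.27% and 5.48% of all tested probes), with a median of 0.14 over the 12 and -0.09 over all probes. Lrrc32 encodes GARP, which holds latent TGF-beta on Treg cells as a substrate of αvβ8. It was higher in Treg than naive T cells by 7.88 (SE 0.38, adjusted p 5.4e-06, with 1 of 2 naive T arrays above background), and in TFR than TFH cells by 7.25 in pLN and 6.22 in PP. Tgfb1 itself rose from pLN to PP by 2.08 in TFH (adjusted p 0.00339) and 1.00 in TFR cells (adjusted p 0.0375). Spp1 (osteopontin, bound by αv and α4 integrins) was at least 16.6-fold higher in TFH than naive T cells (5.68, SE 0.67, adjusted p 0.000207), with naive T cells below background. It fell by 4.10 from pLN to PP TFH cells (adjusted p 0.00859), with 1 of 2 PP arrays above background. Cdh1, which encodes the αEβ7 ligand E-cadherin, was higher in PP than pLN Treg cells (at least 2.43-fold) and TFR cells (at least 1.31-fold). It is also among the epithelial markers, which were high on slide 4, and their part in this was not tested.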

How the data were processed

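The deposited scanner files give, per printed feature, an intensity that the software (Agilent Feature Extraction 10.7.3.1, per the submitters' processing notes) subtracted for background and detrended. The authors' series matrix, an alternative here, has intensity that they averaged over features, quantile normalised, scaled, floored and rounded.

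Here each probe was summarised from its scanner features: the geometric mean over 4 features per probe after leaving out outliers, quantile normalisation, a 75th percentile of 1500, a floor of 20 and log2 of the deposited intensity. A probe was detected with 3 of 4 features well above background, and tested when some group of 2 had it on both its arrays. limma 3.58.1 (R 4.3.3) was fitted to 12 group means on all 20 arrays (8 residual degrees of freedom), with two-sided p-values and Benjamini-Hochberg adjustment over 22264 probes in each of 16 comparisons. The fit was also run on simulated data in which every array was drawn independently, without a slide effect. That run thus cannot speak to calls between the tissues, which lay on separate slides. The single d25 arrays take their spread from the other groups. A fold against a group that lay below background on both arrays is a bound, set by the lowest detected signal there.

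All 10 members are described by their leading probe. From 3 lists of related genes, the called genes with the largest difference were named, at most 3 per list and comparison, and from the probes alike, the nearest 3 or fewer. The members and lists were chosen with earlier results of these data known, and Itgb1 and Itga6 are among the genes the study names. Probe sequences and positions are those of the array annotation (mm9). Precision is limited by the number of arrays.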

Additional observations from a re-analysis of the deposited data

Results flagged for a closer look

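Itgb8 was singled out because the difference of its step from Treg to TFR cells between the tissues passed a test: 2.38 on the log2 scale (SE 0.31, adjusted p 0.00953). PP TFR cells read 119 and 161, and the other 3 groups of that test were below background. Since the probe entered the tests through PP groups in which it was detected, the direction is tied to that choice and the test gives no independent evidence of it. The call was lost without pLN d12 TFR replicate 1 (2.16, adjusted p 0.053), without pLN d12 Treg replicate 2 (2.38, adjusted p 0.052), without slide 4 (2.60, adjusted p 0.080) and with normexp background correction (0.91, adjusted p 0.084).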

How the results depend on the processing

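No called difference of a member probe reversed under any alternative: of 787 values, 673 kept their call and 114 lost it. Changes of the filter, the minimum fold or the slide term, and fits of the compared groups alone, left these differences as they were. Their sign could thus not reverse there, and dropping the minimum fold could not end a call. Of 281 counts of called members, 243 stayed within 1.5 times and 38 did not. Left-out arrays moved the counts to 6 to 8 (TFH against naive T), 1 to 3 (Treg against naive T), 1 to 1 (TFR against Treg, pLN), 2 to 3 (TFR against TFH, pLN and PP alike), 4 to 7 (TFH against Treg, PP), 0 to 1 (PP against pLN, Treg), 2 to 4 (PP against pLN, TFH) and 0 to 1 (tissue difference of TFR against Treg).

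Fitting only the compared groups, which leaves few residual degrees of freedom, gave 5 (TFH against naive T), 3 (PP against pLN, TFR) and 0 for Treg against naive T, for TFR against Treg and TFR against TFH in both tissues, for PP against pLN in Treg and TFH cells, and for the tissue difference of TFR against Treg. Leaving out slide 4 gave 0 for PP against pLN in Treg and in TFH cells and for that tissue difference, and 4 by the F test. Normexp background correction gave 2 (PP against pLN, Treg), 3 (mean over populations) and 0 (tissue difference of TFR against Treg). A mean intensity of at least 100 as the filter gave 3 and 0 for the last 2 of these, no filter gave 1 for TFR against Treg in pLN, and no minimum fold gave 11 for the mean over populations. RNA input as a covariate gave 4 for PP against pLN in Treg cells. A random block for slide gave 4 (TFR against Treg, pLN), 0, 2 and 1 (PP against pLN in Treg, in TFH and for the mean) and 1 (tissue difference of TFR against TFH, also 1 with a fixed block). Testing all probes with no filter also ended the calls of Itgb1 (TFR against Treg, pLN, adjusted p 0.058), Itgb7 (TFR against TFH, pLN, adjusted p 0.083), Itgal (TFR against Treg, PP, adjusted p 0.065) and Itga4 (PP against pLN, TFH, adjusted p 0.103). Scaling without quantile normalisation ended the last of these too (1.90, adjusted p 0.064) and brought the second Itgal probe in TFR cells of PP against pLN to 0.96. The cause of these shifts was not tested.

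Replicate numbers follow deposition and coincide with slides, and the correlation within a slide was 0.742. As a fixed replicate block within tissues, slide ended no call of a member and added 10. As a random block it ended calls between the tissues: Itgb1 in Treg cells, the second Itgb1 probe in TFH cells, Itgb8 in TFH cells, and both Itga4 probes, Itgb8 and the second Itgb1 probe in the mean over populations (adjusted p 0.059 to 0.179). For GL7+ against GL7-, the methods' t-test gave 1 member probe at an unadjusted p under 0.05 and 0 after adjustment. Readings under about 100 are at the limit of detection, which concerns Itgb4, Itgb8, the dimmer probes of Itga4 and Itgav, and the remaining Itgal probe. It also concerns Itgae in naive T cells, TFH cells of pLN d12 and GL7+ TFH cells of PP, against which its large folds were taken.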
